A study of Mus musculus with 9 samples.

Results

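The genes described here encode 32 subunits of Mediator, chosen by name as the members of the complex and its kinase part, among 19938 genes that the array's annotation pairs with a probe set of their own. All 32 were measured. Each was read from the probe set annotated to its symbol alone, and *Med4*, which had 2 such probe sets, from the brighter. The arrays came from mouse 3T3 fibroblasts, an immortalised embryonic fibroblast line, in 3 groups of 3 independent cultures. The first was Trap-80 knock-down cells, a line stably expressing a short hairpin RNA against the Mediator subunit Trap-80 (gene symbol *Med17*), given 5 ng/ml TNF-α for 1 h. The second was wild-type cells given the same TNF-α, and the third was wild-type cells without stimulation. The cells called wild type carried an irrelevant hairpin, so all groups had been transduced. The study made clonal lines with more than 1 hairpin against Trap-80 and took a single clone of each further. Its main experiments used the hairpin it numbers 1. Cultures of a single line do not sample clones, so a trait of the clone cannot be told apart from an effect of losing Trap-80. A rise or fall in the knock-down is therefore a difference between the lines. Resting knock-down cells are not among the arrays analysed here, and a gap between the 2 lines at rest therefore cannot be told apart from an altered response.

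Mediator is a large assembly that carries the signal of DNA-bound activators, such as NF-κB p65, to RNA polymerase II. Its head and middle contact the polymerase, its tail receives most activators, the subunit Med14 runs through the core and joins these parts, and a separable kinase part binds the core and hinders its contact with the polymerase. Here the head was taken as Med6, Med8, Med11, Med17, Med18, Med20 and Med22 (7 genes), the middle as Med1, Med4, Med7, Med9, Med10, Med19, Med21, Med26 and Med31 (9 genes), the tail as Med15, Med16, Med23, Med24, Med25 and Med27 to Med30 (9 genes), and the kinase part as Med12, Med13, Med13l, Cdk8, Cdk19 and Ccnc (6 genes), with *Med14* on its own. Accounts of the complex place Med27 to Med30 in the head or in the tail.

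Values are log2 signals as the authors deposited them, so a difference of 1 is a 2-fold change in signal. A subunit passed the test where limma's adjusted p was below 0.05, with adjustment over all 23410 probe sets tested. The 9 arrays were alike, with pairwise correlations from 0.981 to 0.992, and the median standard error of a difference was 0.10. The number of arrays limits the precision. All 9 fibroblast markers examined lay above the median of the probe set means (5.02), against 1 of 5 macrophage, 1 of 4 epithelial and 0 of 3 endothelial markers. The fibroblast markers summed to 91.6 to 93.8 in knock-down cells, 91.3 to 93.8 in stimulated wild-type cells and 91.5 to 94.0 in unstimulated ones. Within that list *Pdgfra* fell by 1.89 and *Thy1* and *S100a4* rose by 2.09 and 0.55 in the knock-down against stimulated wild type (adjusted p = 9.5e-05, 4.8e-04 and 0.011 from limma). The part of these marker differences in the results on Mediator was not tested.

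*Med17*, the head subunit targeted by the hairpin, was the subunit with the largest change. In yeast it is the one on which the other head subunits assemble. The paper proposes that mammalian Trap-80 probably lacks that essential structural role. *Med17* was read in every array. Its signals were 6.35, 6.22 and 6.17 in knock-down cells with TNF-α, 7.98, 7.93 and 7.77 in wild-type cells with TNF-α, and 8.10, 8.09 and 7.89 in unstimulated wild-type cells. All 3 knock-down arrays lay far below the 6 wild-type arrays, which overlapped each other. Relative to stimulated wild type the gene fell by 1.64 (standard error 0.09, 95% interval -1.85 to -1.44), to 0.32 times that signal, with limma's adjusted p = 4.8e-05. These are values from bulk RNA, in which less transcript in every cell and fewer cells with the transcript cannot be told apart. The study's quantitative PCR gave a larger reduction of this transcript, and its western blot showed no Trap-80 protein. The study also rescaled array signals with a PCR standard curve. That was not done here, so 0.32 is a ratio of array signals. By the size of its fall *Med17* ranked 54 among all probe sets, and by its p-value 8. Against unstimulated wild type the difference was -1.78 (standard error 0.09, adjusted p = 1.9e-05). An exact permutation test, two-sided, gave p = 0.1 in either comparison, the smallest that 3 arrays against 3 allow. TNF-α itself moved *Med17* in wild-type cells by -0.14 (standard error 0.09, adjusted p = 0.76, interval -0.34 to 0.07).

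Among the other 31 subunits, *Med28* rose in the knock-down. Med28 is a small subunit found in animals and known also, under the name magicin, as a partner of the tumour suppressor merlin. Its signals were 6.54, 6.67 and 6.71 in knock-down cells, 6.35, 6.13 and 6.28 in stimulated wild-type cells and 6.42, 6.41 and 6.28 in unstimulated wild-type cells. The knock-down arrays lay above all 6 wild-type arrays. The difference from stimulated wild type was 0.38 (standard error 0.09, adjusted p = 0.032), a 1.30-fold rise, and that from unstimulated wild type was 0.27 (standard error 0.09, adjusted p = 0.10). The call did not survive leaving out knock-down array 2 or 3, any stimulated wild-type array or unstimulated array 2 (adjusted p = 0.052 to 0.12), nor a model of the 6 arrays compared (adjusted p = 0.062), nor adjustment over all 35557 probe sets (adjusted p = 0.068).

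Of the 32 subunits, 1 rose and 1 fell in the knock-down against stimulated wild type, while 3.36% of all probe sets tested rose and 2.6% fell (5.96% in either direction). The members' shares, 3.13% in each direction, are near that background. All 32 subunits have means above the median of the probe set means. Among the 11705 such probe sets, 5.9% rose and 4.5% fell. No overlap between the arrays of both groups was seen for 7 subunits that were higher in the knock-down (21.9%) and 4 that were lower (12.5%). The shares were 10.9% and 10% of all probe sets, and 18.5% and 14.5% of those above that median. The 7 were *Med6*, *Med28*, *Med16*, *Ccnc*, *Med15*, *Med13* and *Med8*, and the 4 were *Med10*, *Med29*, *Med22* and *Med17*. Beside *Med17*, no subunit differed by 1.5-fold or more, as 4.05% of all probe sets and 758 of the 11705 above the median did. The 95% intervals of the 30 subunits that did not pass reached from -0.75 (*Med22*) to 0.75 (*Med6*).

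**Figure D1:**
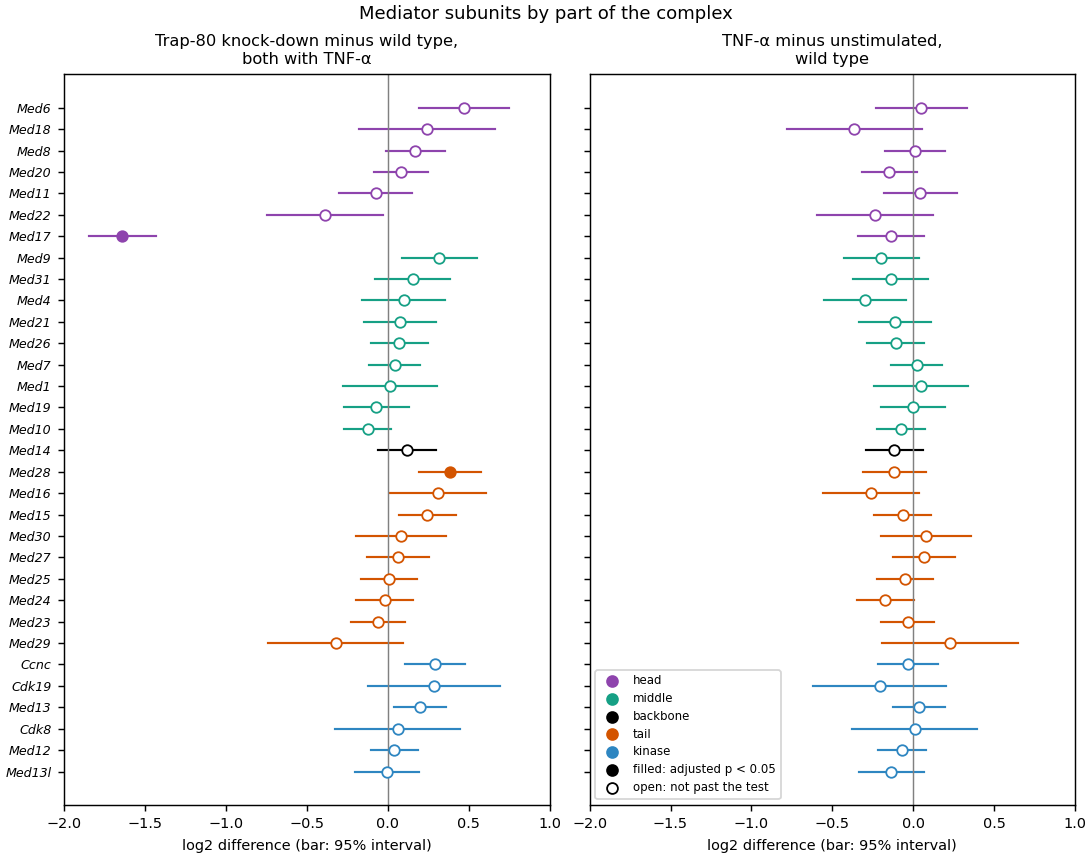
Log2 difference of each Mediator subunit (horizontal axis) with its 95% interval from limma, in knock-down minus wild-type cells, both with TNF-α (left), and in wild-type cells with TNF-α minus without (right), 3 arrays per group, coloured by part of the complex. *Med17* at -1.64 stands apart on the left, *Med28* at 0.38 is the other filled point, and no subunit passed the test on the right.

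The head subunits *Med6* and *Med22* passed the test when knock-down cells were compared with unstimulated wild-type cells, and they differed in opposite directions. Med6 is a conserved head subunit that lies at the contact with the middle. It had signals of 7.95, 7.99 and 8.21 in knock-down cells, 7.65, 7.57 and 7.53 in stimulated wild-type cells and 7.69, 7.66 and 7.25 in unstimulated wild-type cells. All 3 knock-down arrays were higher than all 6 wild-type arrays, and unstimulated array 3 was the lowest of the 9. The difference from unstimulated wild type was 0.52 (standard error 0.12, adjusted p = 0.033), and that from stimulated wild type was 0.47 (standard error 0.12, adjusted p = 0.062). In the model of the 6 arrays compared, in which *Med28* did not pass, *Med6* passed against stimulated wild type (adjusted p = 0.036). It also passed without unstimulated array 3 (adjusted p = 0.014) but without no other array (adjusted p up to 0.20). Nor did *Med6* pass against stimulated wild type with the replicate number as a block (adjusted p = 0.068) or with arrays centred (0.057). Over all deposited probe sets its adjusted p was 0.13.

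Med22 pairs with Med11 in yeast in a bundle of helices that holds the end of Med17. Its signals were 7.39, 7.36 and 7.09 in knock-down cells, 7.80, 7.75 and 7.46 in stimulated wild-type cells and 8.15, 8.01 and 7.57 in unstimulated wild-type cells. The knock-down arrays were the lowest 3 of the 9, although array 3 lay below arrays 1 and 2 in each group. The difference from unstimulated wild type was -0.63 (standard error 0.16, adjusted p = 0.042). Against stimulated wild type it was -0.39 (standard error 0.16, adjusted p = 0.24), and with the replicate number as a block this became a fall (adjusted p = 0.019), in a model where 4.07% of all probe sets fell. *Med11*, which encodes the partner of Med22, had differences of -0.08 and -0.03 from stimulated and unstimulated wild-type cells (adjusted p = 0.78 and 0.90).

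The calls of *Med6* and *Med22* against unstimulated wild type lay close to the threshold. With each array centred on its median, the differences stayed at 0.52 and -0.63 and the adjusted p was 0.051 and 0.050. *Med6* lost its call without any 1 knock-down array, stimulated wild-type array 1 or 2, or unstimulated array 2 (adjusted p = 0.051 to 0.11), and *Med22* lost it without any of those or unstimulated array 1 (adjusted p = 0.065 to 0.15).

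**Figure D2:**
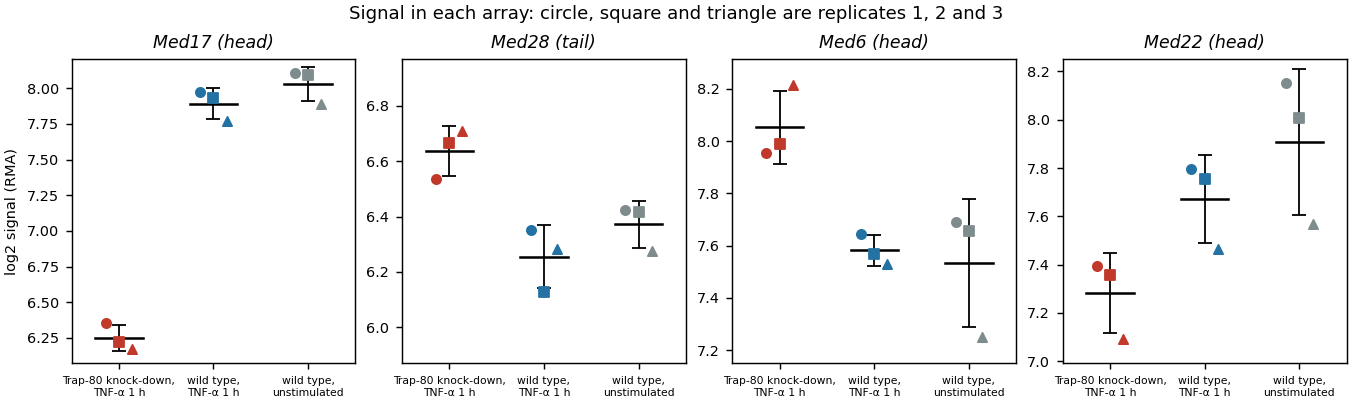
Log2 signal (vertical axis, RMA) of the 4 subunits that passed the test in at least 1 comparison, for knock-down cells with TNF-α, wild-type cells with TNF-α and unstimulated wild-type cells. Points are arrays, horizontal lines are means and bars are SDs (n = 3). The knock-down arrays lie below all wild-type arrays for *Med17* and *Med22* and above them for *Med28* and *Med6*.

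Each of these 4 genes passed the test in at least 1 comparison. The stretches of 250 bases before their annotated starts are shown so that the promoters can be read side by side. They come from RefSeq (GRCm38.p6), run 5′ to 3′ along the gene's strand, and end at the base before the start. Capitals mark motifs matched on either strand. One is TATAAA, the core of the TATA box. Another is the CCAAT box, searched as those letters. The GC box was searched as GGGCGG, and the site of ETS family factors as CCGGAAG.
*Med17*, chr9:15279907-15280156, minus strand: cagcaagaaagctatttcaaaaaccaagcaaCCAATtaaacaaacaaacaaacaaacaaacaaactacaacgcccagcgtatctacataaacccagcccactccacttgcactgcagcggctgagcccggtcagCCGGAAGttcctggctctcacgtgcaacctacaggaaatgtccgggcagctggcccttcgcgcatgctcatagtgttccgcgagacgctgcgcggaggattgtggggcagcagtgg
*Med28*, chr5:45519979-45520228, plus strand: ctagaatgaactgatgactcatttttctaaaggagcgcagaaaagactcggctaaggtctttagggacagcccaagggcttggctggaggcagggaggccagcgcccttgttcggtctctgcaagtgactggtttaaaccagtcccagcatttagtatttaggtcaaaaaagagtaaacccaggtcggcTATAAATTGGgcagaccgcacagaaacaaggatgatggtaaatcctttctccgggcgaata
*Med6*, chr12:81595009-81595258, minus strand: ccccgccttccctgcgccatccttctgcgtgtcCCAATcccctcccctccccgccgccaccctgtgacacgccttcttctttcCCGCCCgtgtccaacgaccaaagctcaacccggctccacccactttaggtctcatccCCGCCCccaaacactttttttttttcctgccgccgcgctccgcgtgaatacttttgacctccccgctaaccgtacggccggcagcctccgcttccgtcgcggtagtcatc
*Med22*, chr2:26910643-26910892, minus strand: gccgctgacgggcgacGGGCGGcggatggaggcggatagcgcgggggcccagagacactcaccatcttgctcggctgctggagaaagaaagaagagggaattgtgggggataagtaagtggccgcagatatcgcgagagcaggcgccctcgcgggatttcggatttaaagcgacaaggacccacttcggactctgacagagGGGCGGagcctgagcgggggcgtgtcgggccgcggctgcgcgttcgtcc

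In *Med28* the TATA motif spans bases 61 to 56 before the start and shares base 56 with a CCAAT box on the opposite strand. *Med6* and *Med22* each hold 2 GC boxes, while *Med17* and *Med28* hold none of these in the 250 bases. Over the 27 subunits with an entry (31 windows), 61.3% of windows held a GC box, against 32.7% of all 32851 windows in the table. The ETS motif was found in 19.4% against 6.91%, the CCAAT box in 38.7% against 33.8%, and the TATA motif in 9.68% (*Med7*, *Med16* and *Med28*) against 12.4%. The NF-κB consensus was found in 3.23% (*Med29*) against 3.9%, and the NRF1 motif in 0 member windows against 0.782%. The median GC content of the member windows was 56% against 52.4% for all, and the ratio of observed to expected CpG was 0.72 against 0.37. A match describes the letters of the window and shows neither binding nor a role in the signals above. *Cdk19*, *Med8*, *Med23*, *Med24* and *Med30* were not part of this count.

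None of the remaining head subunits passed the test in any comparison. Med8, Med18 and Med20 form a movable jaw of the head in yeast. *Med8* had signals of 6.86, 6.65 and 6.61 in knock-down cells, above the 6.55, 6.52 and 6.54 of stimulated wild-type cells, with a difference of 0.17 (standard error 0.08, adjusted p = 0.33). *Med18* and *Med20* differed by 0.24 and 0.08 (adjusted p = 0.58 and 0.66), and their arrays overlapped. The interval of *Med18*, -0.18 to 0.66, was the widest of these.

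The middle contains Med1, the docking subunit for nuclear receptors, Med7 and Med21, which form a hinge in yeast, and Med26, which links Mediator to elongation factors. None of its 9 genes passed the test in any of the 3 comparisons. Its highest and lowest knock-down differences belonged to *Med9* and *Med10*, which are small core subunits. *Med9* had signals of 6.48, 6.80 and 6.68 in knock-down cells, 6.25, 6.48 and 6.27 in stimulated wild-type cells and 6.64, 6.48 and 6.48 in unstimulated wild-type cells. *Med10* had 8.45, 8.57 and 8.48, against 8.59, 8.68 and 8.60 in stimulated wild-type cells and 8.72, 8.70 and 8.68 in unstimulated ones. The groups overlapped for *Med9*, whereas every knock-down array of *Med10* was below every wild-type array by a small margin. The differences from stimulated wild type were 0.32 for *Med9* (standard error 0.10, adjusted p = 0.13) and -0.12 for *Med10* (standard error 0.06, adjusted p = 0.38). The other 7 lay between -0.07 (*Med19*) and 0.15 (*Med31*). *Med1* and *Med26* differed by 0.01 and 0.07, with intervals of -0.28 to 0.30 and -0.11 to 0.25. The dimmer probe set of *Med4* gave 0.07 (adjusted p = 0.90), beside 0.10 (adjusted p = 0.74) for the brighter.

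*Med14*, the backbone, had signals of 8.76, 8.66 and 8.64 in knock-down cells, 8.57, 8.68 and 8.46 in stimulated wild-type cells and 8.71, 8.74 and 8.61 in unstimulated wild-type cells. The 3 groups overlapped. Its difference from stimulated wild type was 0.12 (standard error 0.08, adjusted p = 0.51, interval -0.06 to 0.30).

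In the tail, which takes up activator signals, *Med28* at the top has been described, and the lowest difference was that of *Med29*, the mouse counterpart of the Drosophila gene intersex. Its signals were 6.05, 6.32 and 6.08 in knock-down cells, 6.72, 6.35 and 6.35 in stimulated wild-type cells and 6.42, 6.52 and 5.81 in unstimulated wild-type cells. The knock-down arrays lay just below the stimulated wild-type arrays, but the unstimulated arrays spanned both. The difference from stimulated wild type was -0.32 (standard error 0.19, adjusted p = 0.44). *Med16*, which encodes Trap-95, gave 7.68, 7.90 and 7.88 in knock-down cells, 7.50, 7.37 and 7.67 in stimulated wild-type cells and 7.68, 7.59 and 8.05 in unstimulated wild-type cells. Its knock-down arrays were above the stimulated but not the unstimulated wild-type arrays. *Med15*, a subunit bound by the sterol regulator SREBP, gave 8.32, 8.42 and 8.32 in knock-down cells against 8.09, 8.17 and 8.06 in stimulated wild-type cells, a difference of 0.24 (standard error 0.08, adjusted p = 0.13). The other 5 tail genes (*Med23*, *Med24*, *Med25*, *Med27* and *Med30*) differed by -0.06 to 0.08, and their arrays overlapped.

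The kinase part consists of cyclin C (*Ccnc*), a kinase that is either Cdk8 or its paralogue Cdk19, Med12, which activates the kinase, and Med13 or its paralogue Med13l, which tether the part to the core. None of the 6 genes passed the test in any comparison. *Ccnc* had signals of 7.76, 7.66 and 7.83 in knock-down cells, 7.45, 7.37 and 7.56 in stimulated wild-type cells and 7.50, 7.58 and 7.40 in unstimulated wild-type cells. Its knock-down arrays were above all 6 wild-type arrays, by a difference of 0.29 from stimulated wild type (standard error 0.08, adjusted p = 0.082). *Med12* differed by 0.04 (interval -0.11 to 0.19).

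In neither paralogue pair did a gene pass the test. *Med13* gave 9.40, 9.35 and 9.45 in knock-down cells against 9.21, 9.20 and 9.20 in stimulated and 9.25, 9.19 and 9.06 in unstimulated wild-type cells. *Med13l* gave 8.90, 8.81 and 8.85 in knock-down cells, 8.88, 8.73 and 8.97 in stimulated wild-type cells and 8.99, 8.88 and 9.12 in unstimulated ones. *Med13* was therefore higher in every knock-down array, by 0.20 from stimulated wild type (interval 0.04 to 0.36, adjusted p = 0.17), and *Med13l* overlapped, at -0.01 (interval -0.20 to 0.19, adjusted p = 0.99). *Cdk19* gave 7.31, 7.36 and 7.48 in knock-down cells, 7.01, 6.84 and 7.44 in stimulated wild-type cells and 7.09, 7.16 and 7.67 in unstimulated ones. *Cdk8* gave 8.93, 8.81 and 8.74 in knock-down cells, 8.99, 8.80 and 8.50 in stimulated wild-type cells and 8.99, 8.90 and 8.38 in unstimulated ones. For both kinases the groups overlapped, and in wild-type cells array 3 was the highest for *Cdk19* and the lowest for *Cdk8*. Their knock-down differences were 0.28 for *Cdk19* (interval -0.12 to 0.69) and 0.06 for *Cdk8* (interval -0.32 to 0.45). Whether the genes of a pair differed from each other in response was not tested.

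**Figure D3:**
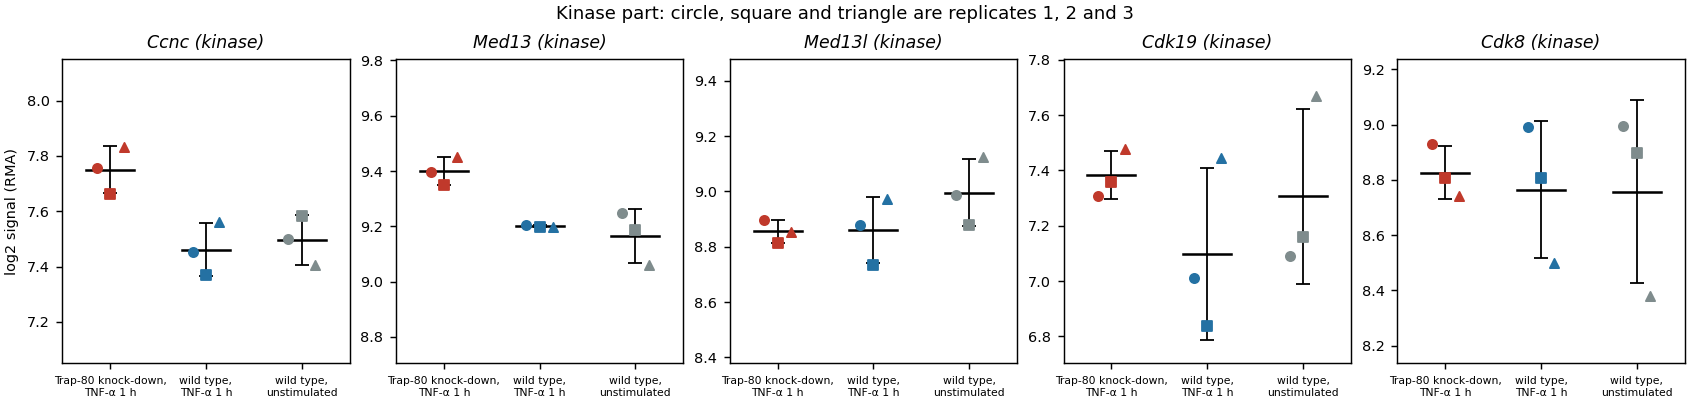
Log2 signal (vertical axis, RMA) of 5 genes of the kinase part in knock-down cells with TNF-α, wild-type cells with TNF-α and unstimulated wild-type cells. Points are arrays, lines are means and bars are SDs (n = 3). *Ccnc* and *Med13* are higher in all 3 knock-down arrays, *Med13l*, *Cdk19* and *Cdk8* overlap between groups, and array 3 of the wild-type groups is high for *Cdk19* and low for *Cdk8*.

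Set side by side, the parts had small median knock-down differences, all above 0. The median was 0.08 in the head (0.13 without *Med17*), 0.07 in the middle, 0.06 in the tail and 0.13 in the kinase part, beside 0.12 for *Med14* and -0.02 over all probe sets tested. Of the 32 subunits, 23 were above 0 (71.9%), against 45.3% of all probe sets and 51.9% of those with a mean above the median. With each array centred on its median 25 were above 0 (78.1%), against 60.4% and 62.6%. Leaving out 1 array of the comparison at a time gave 20 to 26 of 32. No test of a list was run.

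For the TNF-α response of wild-type cells, no subunit passed the test in limma, with or without the replicate block, where 0.115% of all probe sets passed without it and 0.235% with it. At an unadjusted p below 0.05, 1 subunit differed (7.1% of all probe sets), *Med4*, at -0.30 (standard error 0.11, adjusted p = 0.67). Its signals were 8.35, 8.26 and 8.05 with TNF-α, against 8.66, 8.57 and 8.31 without. The groups overlapped by 1 array of each, and array 3 was the lowest of both. With the replicate number as a block, 4 subunits were lower at an unadjusted p below 0.05, as were 1212 of 23410 probe sets (9.42% in either direction). They were *Med4*, *Med18*, *Med22* and *Med16*, and none passed after adjustment (adjusted p = 0.34 to 0.50). Each was lower with TNF-α in every pair of same-numbered arrays, an order that selection by the block model favours. *Med24* was the subunit whose stimulated arrays (8.12, 8.06 and 8.10) all lay below the unstimulated ones (8.30, 8.19 and 8.31), at -0.17 (adjusted p = 0.70), an order that 6.18% of all probe sets showed. No subunit had all stimulated arrays above the unstimulated ones, as 4.01% of all probe sets had. The largest differences were -0.36 for *Med18* and 0.23 for *Med29*, and the 95% intervals of the 32 reached from -0.78 to 0.64.

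In this comparison the median was -0.14 in the head, -0.11 in the middle, -0.05 in the tail and -0.05 in the kinase part, beside -0.12 for *Med14*. Over all probe sets it was -0.02, and over those with a mean above the median -0.05. With Med27 to Med30 counted in the head, the head median was slightly above 0. Of the 32 subunits 10 were above 0 (31.3%), against 44.9% of all probe sets and 31.1% of those above the median, the last of which is near the members' share. Centring the arrays left 3 above 0 (9.38%, against 29.5% and 18.1%), and leaving out unstimulated array 3 left 4 (12.5%, against 47.3% and 31.2%). The share therefore depended on the scaling and on that array.

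Between stimulated knock-down cells and unstimulated wild-type cells, *Med6* rose and *Med17* and *Med22* fell. That is 3.13% and 6.25% of the subunits, beside 3.64% and 4.62% of all probe sets. Among probe sets with a mean above the median, 6.04% rose and 8.12% fell. The 3 subunits that passed are all head subunits, and 4 of 7 head genes and all 25 others did not pass. The medians were -0.07 in the head, -0.03 in the middle, 0.05 in the tail and 0.07 in the kinase part. With Med27 to Med30 counted in the head, the tail median was that of *Med25*, -0.05, so its sign depended on the placement. In all, 16 of 32 genes were above 0 (47.4% of all probe sets). No overlap between the arrays was seen for 6 subunits higher in the knock-down (*Med6*, *Med28*, *Ccnc*, *Med13*, *Med8* and *Med15*) and 4 lower (*Med17*, *Med22*, *Med10* and *Med24*). These are 18.8% and 12.5% of the subunits, against 10.8% and 12.6% of all probe sets. Among probe sets with a mean above the median the shares were 16.5% and 20.4%. This comparison shares arrays with both others, so its values are no independent evidence. The knock-down and TNF-α comparisons also share the stimulated wild-type arrays. A low signal in those arrays raises the knock-down difference and lowers the TNF-α difference. The medians over all members, 0.07 and -0.07, are therefore not independent of each other.

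**Figure D4:**
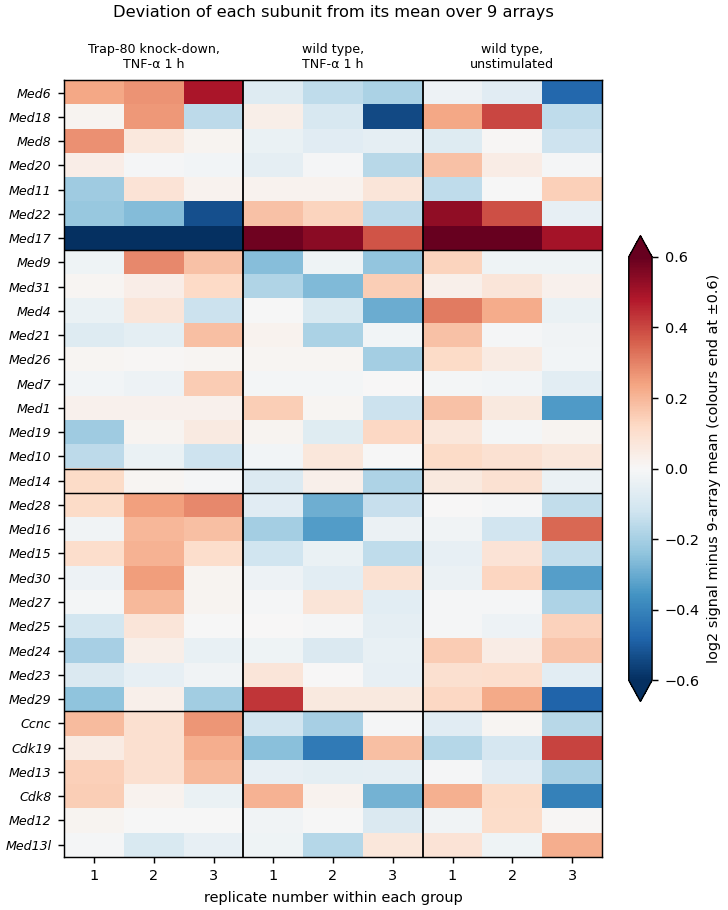
Each cell is the log2 signal of 1 subunit (rows, grouped by part) in 1 array (columns, replicates 1 to 3 of knock-down cells with TNF-α, wild-type cells with TNF-α and unstimulated wild-type cells) minus the subunit's mean over the 9 arrays. The *Med17* row runs past the colour scale in the knock-down, and unstimulated array 3 is the lowest of its group for 23 of 32 subunits.

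The other subunits also varied between arrays of one group, though a range over the 9 arrays takes in differences between groups too. The range over the 9 arrays was 1.93 for *Med17*, 1.06 for *Med22*, 0.96 for *Med6*, 0.94 for *Med18*, 0.91 for *Med29* and 0.83 for *Cdk19*, and 0.19 to 0.68 for the other 26. Unstimulated wild-type array 3 was the lowest of its group for 23 of the 32 subunits, against 33% of all probe sets. Array 3 was the lowest in all 3 groups for 8 of the 32 subunits, against 7.77% of all probe sets. The 8 were *Med17*, *Med18*, *Med20*, *Med22*, *Med4*, *Med14*, *Med15* and *Cdk8*. For *Cdk19*, array 3 was the highest in all 3 groups. The sources do not say what the replicate number stands for.

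Genes that act beside Mediator were examined from 3 lists, beside the 3.36% of all probe sets that rose and the 2.6% that fell in the knock-down against stimulated wild type. None of 12 polymerase II subunits passed the test (2 higher at an unadjusted p below 0.05, against 17.4% of all probe sets in either direction, median 0.08). Of 16 general transcription factor genes measured among 17, 2 rose and none fell (median 0.02). *Gtf2a1*, a subunit of TFIIA, averaged 8.67 in knock-down cells against 8.17, a difference of 0.51 (adjusted p = 0.020). *Mnat1*, which assembles the kinase of TFIIH, averaged 6.05 against 5.74, a difference of 0.31 (adjusted p = 0.0496). Of 12 partner genes measured among 13, 1 rose and 2 fell (median 0.02). *Smc1a*, a cohesin subunit, rose by 0.29 (adjusted p = 0.039). *Ell2* and *Aff4*, both of the super elongation complex, fell by 0.70 and 0.36 (adjusted p = 0.0048 and 0.042). None of these genes passed for TNF-α in limma, with 2 higher and 3 lower at an unadjusted p below 0.05. Against unstimulated wild type, *Gtf2a1* rose by 0.44 (adjusted p = 0.028), and *Polr2i* and *Aff4* fell by 0.28 and 0.33 (adjusted p = 0.047 and 0.0498).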

How the data were processed

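Total RNA from 3T3 cells was hybridised to Affymetrix Mouse Gene 1.0 ST arrays. The authors deposited log2 values made by RMA, which corrects background, normalizes the arrays and summarises probe sets, with a version the sources used here do not give. Values were used as deposited, with none removed for low signal. The platform annotation gives 1 symbol to 21789 of the 35557 probe sets and several to 1621, and these 23410 were tested, leaving out 12147 that are unnamed here. Another 2 probe sets, each shared by a member with another gene, were left out. Member symbols matched RefSeq by gene ID (GRCm38.p6, used for names and promoter sequence).

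The 3 groups were fitted together over the 9 arrays with lmFit and eBayes of limma 3.58.1 in R 4.3.3, using Benjamini-Hochberg adjustment, a threshold of 0.05 and intervals from the moderated standard errors. The model was tested on simulated data. Deviations from the group means correlated between arrays of the same number in the knock-down comparison (correlations 0.15 to 0.46). They also did in the TNF-α response (0.11 to 0.40), and less so between knock-down and unstimulated arrays (0.0022 to 0.22). A second model therefore took the number as a block. Arrays of different numbers correlated at -0.39 to 0.16 in the knock-down comparison and -0.40 to 0.25 in the TNF-α response. Pairs of array 3 with array 1 or 2 were all negative, and pairs of array 1 with array 2 were all positive. Some of these positive values exceeded same-number values, so the correlations do not establish a pairing by number. The labels do not say what a number marks. P-values measure the spread between these cultures and not the spread between clones.

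Values in every array were given for *Med17*, for subunits that passed a test, for the highest and lowest knock-down difference in each part and for paralogue pairs, and *Med4*, *Med8*, *Med15*, *Med16* and *Med24* were added after their values were seen. The subunits and lists were chosen with earlier results of these data known. Alternatives were the block, a model of the 6 arrays compared, centring, all probe sets, a filter on dim probe sets, an intensity trend, each array left out, every probe set of a gene, the methods' reproducibility limits (SD below 0.5 of the mean difference and unadjusted p below 0.1) and Med27 to Med30 in the head.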

Additional observations from a re-analysis of the deposited data

How the results depend on the processing

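The fall of *Med17* in the knock-down kept its direction and passed the test under every alternative, with values of -1.70 to -1.60 when 1 array was left out. With the replicate block, 3 subunits passed in the knock-down against stimulated wild type (*Med22* was added), 0 for TNF-α, and the same 3 against unstimulated wild type, and apart from *Med22* the block changed no call. Against stimulated wild type, where 2 subunits passed, 1 did with adjustment over all deposited probe sets, 4 among probe sets above the median mean (*Med6* and *Ccnc* were added), where 13.5% of those probe sets passed, and 9 under the methods' reproducibility limits (6 higher, 3 lower), which 16.4% of all probe sets met. In the model of 6 arrays 2 passed, *Med17* and *Med6*, without *Med28*. Leaving out 1 array gave 1 to 3. For TNF-α the count was 0 whichever array was left out, and 1 (*Med24*, lower) under the reproducibility limits, which 7.46% of all probe sets met. Against unstimulated wild type, where 3 passed, 1 did in the model of 6 arrays, 1 after centring, 1 over all deposited probe sets, 8 under the reproducibility limits (5 higher, 3 lower, against 19.9% of all probe sets), and 1 to 3 with 1 array left out. *Med6* and *Med22* were the calls lost there (adjusted p = 0.092 and 0.087 with 6 arrays, 0.068 and 0.085 over all deposited probe sets). The cause of these changes was not tested, except that adjusting over more or fewer probe sets changes the adjustment itself.

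Centring each array on its median moved the knock-down medians to 0.14 in the head, 0.12 in the middle, 0.18 in the kinase part and 0.13 over all members, and the TNF-α medians to -0.16 in the middle, -0.11 in the tail, -0.11 in the kinase part and -0.13 over all members. With Med27 to Med30 counted in the head, its TNF-α median was 0.011. The tail median was then 0.0067 in the knock-down against stimulated wild type and -0.05 against unstimulated wild type. With 1 array left out, the knock-down medians ranged from 0.037 to 0.12 in the head, 0.013 to 0.11 in the middle, 0.07 to 0.17 for *Med14*, -0.01 to 0.10 in the tail, 0.12 to 0.19 in the kinase part and 0.04 to 0.10 over all members. The TNF-α medians ranged from -0.19 to -0.08 in the head, -0.14 to -0.057 in the middle, -0.17 to -0.064 for *Med14*, -0.090 to -0.0062 in the tail, -0.091 to -0.010 in the kinase part and -0.099 to -0.058 over all members. Against unstimulated wild type they ranged from -0.11 to -0.03 in the head, -0.07 to 0.01 in the middle, -0.04 to 0.03 for *Med14*, 0.0035 to 0.12 in the tail, 0.06 to 0.08 in the kinase part and -0.04 to 0.01 over all members. The number of arrays, 3 in each group, limits the precision of every value.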
